A study of Mus musculus with 7 samples.

Results

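Interferon-stimulated genes were followed in splenic memory B cells (MBCs) and plasma cells (PCs), alternative fates that germinal center (GC) B cells can take. Whether the sorted cells came from GCs was not tested. The set holds 44 genes, chosen by symbol and located by Ensembl ID among the 48795 genes of the deposited table, and all 44 were matched. The cells came from female wild type C57BL/6 mice aged 8 to 12 weeks, killed 10 days after intravenous injection of sheep red blood cells, a T cell-dependent antigen, so every library is from an immunized animal and none is from a resting or interferon-treated mouse. The 3 MBC libraries were sorted as B220+ CD138- IgD- CD38+ CD273+ cells and the 4 PC libraries as B220lo CD138+ IgD- cells, after passage over CD43 beads. The labels do not say which libraries came from separate mice, so p-values measure the spread between these libraries, which may in part be technical. MBC replicates 1, 2 and 3 carry the same title codes as PC replicates 1, 3 and 4, in that order. What these codes mark is not stated, and a shared animal is possible. The main fit does not pair libraries, and a fit with blocks by title code is given at the end.

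Type I and type II interferons act through separate receptors on Janus kinases and STAT proteins. The promoters of their target genes carry the interferon-stimulated response element (ISRE), the gamma-activated site (GAS) or both. The genes so induced encode sensors of foreign nucleic acid, enzymes that degrade RNA or block its translation, membrane proteins that hinder viral entry and release, the ubiquitin-like protein ISG15 with its enzymes, and GTPases that attack vacuoles holding microbes. Several of them are also expressed without interferon, at levels that differ between cell types. The comparison of MBCs with PCs asked whether these genes move together between the sorted populations or each in its own way.

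Values are given as scaled TPM, the deposited TPM (transcript levels corrected for length) after division by a median-ratio factor per library, because immunoglobulin transcripts took 49.4% to 55.9% of the TPM in PCs and 1.65% to 3.16% in MBCs. Genes were tested with limma on log2(scaled TPM + 1) and called where the adjusted p was under 0.05 and the log2 fold change was 1 or more in size. Differences are coded as PC minus MBC, and for genes of low level this scale understates them. A 1 kb transcript at 1 TPM stood for an estimated 6.26 to 11.6 reads in the MBC libraries and 9.38 to 16.4 in the PC libraries. A count of 3 such reads, taken as the floor, stood at 0.126 to 0.29 scaled TPM in MBCs and 0.255 to 0.393 in PCs. All 6 PC markers were called higher in PCs. Sdc1, the gene of CD138, was among them, but its direction goes with the sort on CD138, so it is no separate check of the labels. Sdc1 and Tnfrsf17 entered the test through PC libraries alone, where they are high. Of the 6 MBC markers, 1 (Hhex) was called lower in PCs with all libraries, and 5 without the library labelled MBC replicate 3. Cd38 and Pdcd1lg2 (the gene of CD273), on which MBCs were sorted, were not called with all libraries. The library labelled MBC replicate 3 stood apart from the other MBC libraries. Its 6 MBC markers summed to 25.3 scaled TPM, against 362 and 452 in MBC replicates 1 and 2 and 15.3 to 30.3 in PCs, and its 10 proliferation genes summed to 1106, against 210 and 222 in those libraries and 540 to 793 in PCs. The mitochondrial share of the TPM was 33.2% and 33.5% for MBC replicates 1 and 2, 19.7% for that library and 8.1% to 9.8% for PCs, and the part of this difference in the results was not tested. The library shares with PC replicate 4 a title prefix that the other 5 libraries do not carry, and the labels do not say what the prefix marks. Results that rest on it are therefore given with and without it. In bulk RNA, fewer cells that express a gene and less RNA per cell cannot be told apart.

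The 44 genes did not move as a block between MBCs and PCs. Of them, 31 reached the minimum for testing (1 TPM or more in at least 3 libraries). Isg20, Isg15, Zbp1, Igtp and Ifitm3 rose in PCs, Samd9l fell, and 25 were not called. Each of the 5 genes that rose was under 1 TPM as deposited in MBC replicate 1 or MBC replicate 2. It therefore met the minimum only with PC libraries, where it is high, and its call is read with that limit. Over all 11573 genes tested, 6.41% were called higher, 2.14% lower and 8.55% in either direction. The median log2 fold change of the 31 was 0.18, beside 0.14 over all tested genes, with 17 positive and 14 negative. With TPM as deposited, which lowers the median of all tested genes to -0.91, 2 members were called higher and 5 lower. Within the 5 libraries of the more frequent title prefix, 3 members were called higher (Isg20, Isg15 and Zbp1) and 3 lower (Samd9l, Oasl2 and Sp100). MBC and PC values did not overlap for 8 of the 31 (the 6 called genes, Herc6 and Sp100), a state found in 21.7% of all tested genes, so this count is nothing particular to the members. Summed over the 44 genes, the level was 748 and 802 scaled TPM for MBC replicates 1 and 2, 332 for the library labelled MBC replicate 3, and 659 to 791 for PCs. Against MBC replicates 1 and 2 alone, the PC range began lower and overlapped theirs. Large parts of these sums came from Sp100 and Isg20, which went opposite ways. Sp100 was 328 and 299 in MBC replicates 1 and 2 and 84.5 to 105 in PCs. Isg20 was 0 and 16.3 in those MBC libraries and 185 to 256 in PCs.

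**Figure D1:**
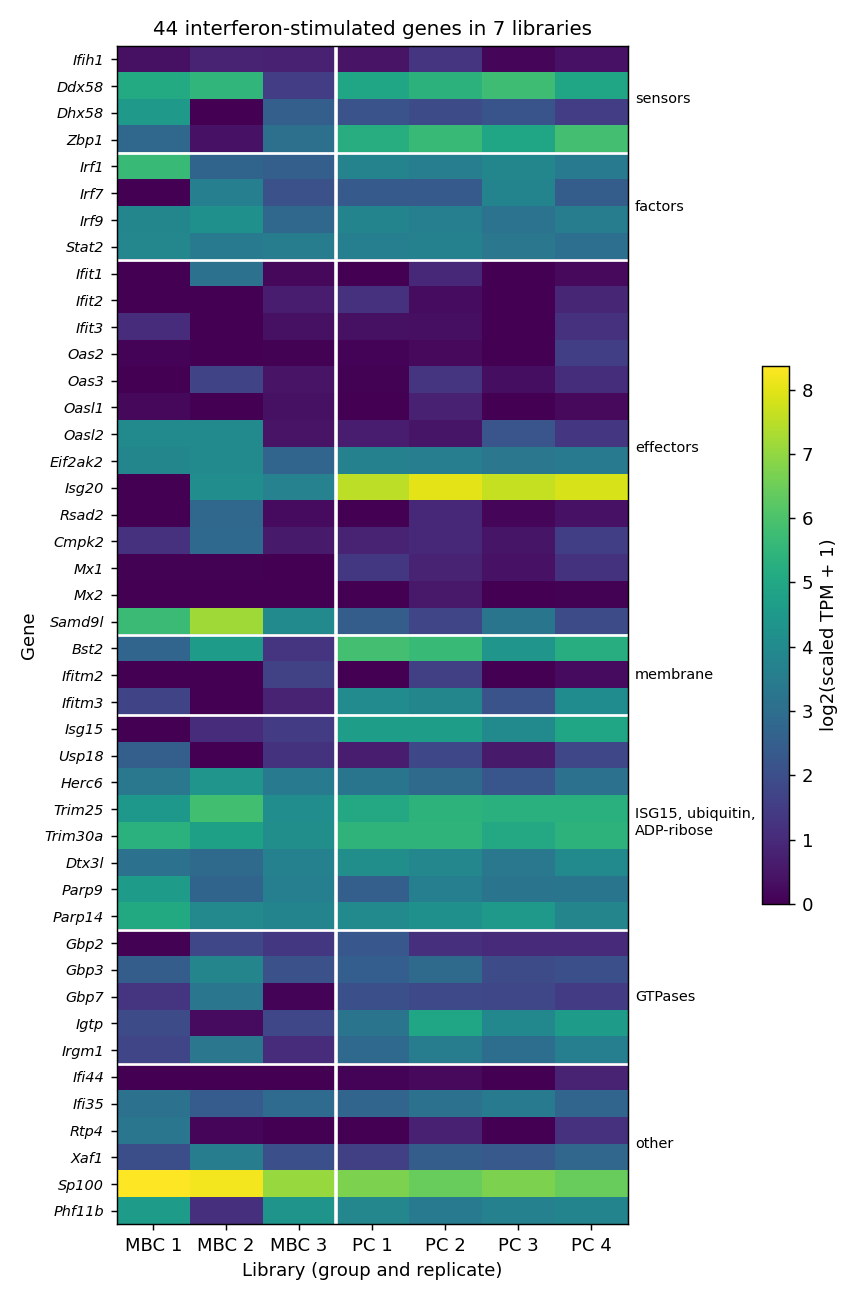
Heat map of log2(scaled TPM + 1) for the 44 interferon-stimulated genes (rows, in blocks by role) in the 3 MBC and 4 PC libraries (columns, separated by the thick white line). Rows for Isg20, Isg15 and Zbp1 are brighter in all PC columns, Samd9l and Sp100 are brighter in the MBC columns, and most of the effector block (Ifit, Oas and Mx genes) is dark in both groups.

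Isg20 had the largest difference. This gene (ENSMUSG00000039236, GRCm38 chr7:78913424-78920396, plus strand) encodes an exonuclease that degrades RNA from its 3′ end. It was listed at 0 in MBC replicate 1 and at 16.3 and 12.2 scaled TPM in MBC replicates 2 and 3, while PC replicates 1 to 4 had 185, 256, 198 and 233. Every PC library was thus more than 10 times the highest MBC library, and Isg20 was the most abundant of the 44 genes in PCs. The log2 fold change was 5.15 (limma standard error 0.85, adjusted p = 0.00489), and 5.62 (limma standard error 0.92, adjusted p = 0.00547) without the library labelled MBC replicate 3.

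Isg15 (ENSMUSG00000035692, chr4:156199424-156200818, minus strand) encodes the ubiquitin-like protein that is attached to other proteins during an interferon response. MBC replicates 1 to 3 had 0, 1.07 and 1.72 scaled TPM of it, while the PC libraries had 24.1, 24.7, 14.5 and 29.6. The lowest PC library lay well above the highest MBC library. The log2 fold change was 3.72 (limma standard error 0.53, adjusted p = 0.00219). Isg20 and Isg15 were the only members with an adjusted p under 0.05 in all 17 alternative fits.

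Zbp1 (ENSMUSG00000027514, chr2:173206612-173218923, minus strand) encodes a sensor of left-handed nucleic acid that can trigger cell death. It was 5.97, 0.33 and 7.42 scaled TPM in the MBC libraries and 36.0, 49.2, 29.8 and 57.1 in the PC libraries, again with a clear gap between the groups. Its log2 fold change was 3.32 (limma standard error 0.65, adjusted p = 0.0124). Zbp1 kept an adjusted p under 0.05 in 14 of 17 alternative fits, among them all 7 that left out a library. In the other 3 the adjusted p was 0.0514 to 0.0646.

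Igtp (ENSMUSG00000078853, chr11:58199556-58207591, plus strand) encodes an immunity-related GTPase of the vacuole-attacking kind. MBC libraries had 2.74, 0.189 and 2.46 scaled TPM and PC libraries 8.21, 29.7, 14.1 and 23.5. The groups did not overlap, although PC replicate 1 lay well below the other PC libraries. The log2 fold change was 2.85 (limma standard error 0.63, adjusted p = 0.0218). The call was lost without PC replicate 2 (adjusted p = 0.0905), without PC replicate 3 (0.0604) or without PC replicate 4 (0.0826), and Igtp passed in 9 of 17 alternative fits. Exons of Igtp overlap those of Irgm2 on the same strand, so the division of reads between them depends on the quantification.

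Ifitm3 (ENSMUSG00000025492, chr7:141009586-141010770, minus strand) encodes a membrane protein that blocks the fusion of viruses in endosomes. It was 2.25, 0 and 0.731 scaled TPM in MBCs and 15.2, 13.3, 3.38 and 15.6 in PCs. PC replicate 3 lay close to the highest MBC library, and the other PC libraries lay far above it. The log2 fold change of 2.68 (limma standard error 0.67, adjusted p = 0.0377) was the weakest of the calls. It no longer passed without MBC replicate 2 (adjusted p = 0.0965) or without PC replicate 1, 2 or 4 (0.0956, 0.117 and 0.115), and it passed in 5 of 17 alternative fits.

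Samd9l was the single called gene that was lower in PCs. This gene (ENSMUSG00000047735, chr6:3372257-3399572, minus strand) encodes an antiviral protein that restrains translation and cell growth. MBC replicates 1 to 3 had 50.9, 144 and 14.9 scaled TPM, and the PC libraries had 4.58, 2.33, 8.54 and 2.86. The library labelled MBC replicate 3 was the lowest MBC library and still stood above every PC library. The log2 fold change was -3.27 (limma standard error 0.73, adjusted p = 0.023), and -4.05 (limma standard error 0.60, adjusted p = 0.00372) without that library. The adjusted p was above 0.05 without MBC replicate 1 (0.068), MBC replicate 2 (0.0556), PC replicate 1 (0.057), PC replicate 2 (0.0696) or PC replicate 4 (0.0665), with log2 fold changes between -3.32 and -2.51 in these fits.

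**Figure D2:**
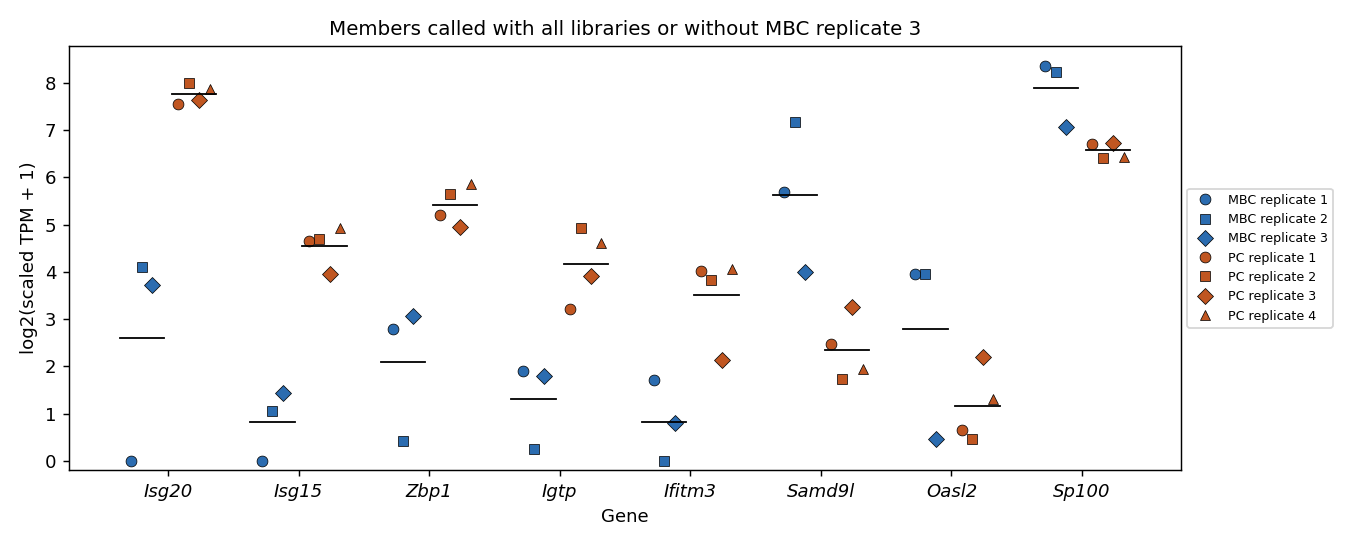
Level of 8 members in each library, as log2(scaled TPM + 1) on the vertical axis, with MBC libraries in blue, PC libraries in orange, a marker shape per replicate and a black line at the group mean. The first 5 genes are higher in every PC library than in any MBC library, Samd9l and Sp100 are lower in every PC library, and Oasl2 separates the groups except for the library labelled MBC replicate 3.

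Leaving out the library labelled MBC replicate 3 added 2 calls, both lower in PCs, and removed none of the 6. In that fit 15.1% of all tested genes were called higher and 8.2% lower, so more calls were made throughout. Sp100 encodes a component of nuclear bodies that restrict incoming viral genomes. Its values were 328, 299 and 133 scaled TPM in the MBC libraries and 104, 84.5, 105 and 85.4 in the PC libraries, which made it the most abundant member in MBCs. The groups did not overlap, with a log2 fold change of -1.32 (limma standard error 0.37, adjusted p = 0.0596) over all libraries and -1.73 (limma standard error 0.26, adjusted p = 0.00411) without that library. Sp100 also passed with immunoglobulin genes removed (-1.61, adjusted p = 0.0195) and with quantile normalization (-2.09, adjusted p = 0.0089).

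Oasl2, a relative of the oligoadenylate synthetases, was 14.6 scaled TPM in both MBC replicate 1 and MBC replicate 2, and 0.37 in the library labelled MBC replicate 3. PC libraries had 0.566, 0.386, 3.58 and 1.48. The library labelled MBC replicate 3 was therefore at the level of PCs and the other MBC libraries were above it. Its log2 fold change was -1.64 (limma standard error 0.90, adjusted p = 0.301) with that library and -2.74 (limma standard error 0.59, adjusted p = 0.016) without it.

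Among the sensors, only Zbp1 was called. Ddx58, which encodes the RNA helicase RIG-I, had 33.6 and 44.9 scaled TPM for MBC replicates 1 and 2 but 1.84 for the library labelled MBC replicate 3, while PC libraries had 29.2, 40.0, 53.3 and 29.6. Apart from that library the groups covered the same range, and the log2 fold change of 1.20 (limma standard error 0.85, adjusted p = 0.43) became -0.07 (limma standard error 0.36, adjusted p = 0.902) without it. Dhx58 (LGP2), a helicase that modulates the other RNA sensors, was spread from 0 to 21.8 scaled TPM over the MBC libraries and was 1.87 to 3.53 in PCs. Ifih1, the gene of the RNA sensor MDA5, stayed at or under 1.41 scaled TPM in every library and was not tested.

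None of the 4 transcription factors was called. Stat2 and Irf9, whose products act together at the ISRE, ranged over 9.87 to 13.6 and 6.14 to 17.4 scaled TPM in MBCs and over 7.24 to 11.8 and 8.01 to 12.8 in PCs. Their log2 fold changes were -0.22 (limma standard error 0.42, adjusted p = 0.795) and -0.11 (limma standard error 0.47, adjusted p = 0.91). Irf1, an early target of interferon gamma, was 49.4 scaled TPM in MBC replicate 1 but 5.49 and 4.84 in the other MBC libraries, and 9.58 to 13.2 in PCs. Irf7, the factor that amplifies type I interferon production, was 0, 11.3 and 3.21 in MBCs and 4.17, 4.13, 12.5 and 4.53 in PCs, so its groups overlapped. Exons of Irf1, Irf7 and Irf9 each overlap those of another annotated gene.

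The effectors that are most often read as an interferon signature were low in both groups. Of the 44 genes, 13 did not reach the minimum for testing, and 9 of these 13 were among the 14 effectors. Over all 7 libraries 10 genes stayed under 3 scaled TPM: Ifih1, Ifit2, Ifit3, Oas2, Oas3, Oasl1, Mx1, Mx2, Ifitm2 and Ifi44. Mx2 and Ifi44 were listed at 0 in all 3 MBC libraries, and no member was listed at 0 in all PC libraries. Mx1, of which C57BL/6 mice carry a defective allele, was 0.0146 to 0.0404 scaled TPM in MBCs, under the floor of a 1 kb transcript, and 0.332 to 1.54 in PCs. It was too low to be tested.

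The remaining 3 untested genes were above 3 scaled TPM in a single library each. Ifit1, whose product binds viral RNA that lacks the host cap, was 7.82 scaled TPM in MBC replicate 2 and at most 0.951 elsewhere. Rsad2, the gene of viperin, was 5.90 in the same library and at most 0.936 elsewhere. Cmpk2, its neighbor on chromosome 12, makes the nucleotide from which viperin forms its antiviral product, and it was 6.33 in that library and 0.394 to 1.92 in the others. Rtp4 was 8.70 in MBC replicate 1 and at most 1.28 elsewhere. These levels thus belonged to particular MBC libraries and not to the MBC group. MBC replicate 2 also carried 2897 scaled TPM of the 5 erythroid genes, against at most 72.6 in any other library. MBC replicate 1 was the only library with the plasmacytoid dendritic cell gene Siglech above 0.2 scaled TPM, at 6.05. It also had the highest Ccr9 and Klk1, at 7.21 and 2.28. The rest of that list did not follow. Cox6a2 and Runx2 were 2.61 and 6.21 in MBC replicate 1 but 14.1 and 6.72 in PC replicate 1. Spib was 76.1 in MBC replicate 1, below the 178 and 134 of the other MBC libraries. The part of such cells in these levels was not tested.

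Eif2ak2, the gene of the RNA-activated kinase PKR, was 13.4, 14.9 and 5.62 scaled TPM in MBCs and 9.02 to 11.7 in PCs, with overlap (log2 fold change -0.01, SE 0.46; limma, adjusted p = 0.993).

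Among the membrane proteins, Bst2, the gene of tetherin, which holds budding virus at the cell surface, had most of its PC values above its MBC values. It was 5.58, 23.0 and 1.39 scaled TPM in MBCs and 57.0, 49.8, 19.7 and 35.9 in PCs. PC replicate 3 lay below MBC replicate 2, so the groups overlapped, and the log2 fold change of 2.42 (limma standard error 0.73, adjusted p = 0.0768) was not called. Without MBC replicate 2 it was 3.24 (adjusted p = 0.0113). Ifitm2, a near relative of Ifitm3, was at most 2.12 scaled TPM in any library.

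Of the 8 genes for ISG15, ubiquitin and ADP-ribose enzymes, all were tested and Isg15 alone was called. The enzymes that act on ISG15 did not follow it. Usp18, which removes ISG15 from proteins, was 4.82, 0 and 1.35 scaled TPM in MBCs and 0.504 to 2.54 in PCs. Herc6, the mouse ligase for ISG15, was 9.20, 19.7 and 10.2 in MBCs and 8.54, 6.39, 3.76 and 7.64 in PCs, without overlap but with a log2 fold change of -0.86 (limma standard error 0.49, adjusted p = 0.32). Trim25, a ubiquitin ligase for RIG-I, was 21.1, 55.6 and 16.2 in MBCs and 31.7 to 41.5 in PCs. Trim30a, which dampens Toll-like receptor signals, was 39.6, 26.0 and 16.6 in MBCs and 32.1 to 42.9 in PCs. The partners Dtx3l and Parp9, whose exons overlap on opposite strands, had log2 fold changes of 0.60 and -0.49, and Parp14 had -0.14. None of these 3 passed, with adjusted p between 0.439 and 0.882 (limma).

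Of the 5 interferon-inducible GTPases, Igtp was the only call. Irgm1, which regulates Igtp and its relatives, was 2.33, 8.92 and 1.09 scaled TPM in MBCs and 6.29 to 11.1 in PCs, a log2 fold change of 1.22 (limma standard error 0.62, adjusted p = 0.264). The guanylate-binding proteins Gbp2, Gbp3 and Gbp7, neighbors on chromosome 3, had log2 fold changes of 0.31, -0.43 and 0.24. Each had its highest MBC value in MBC replicate 2, at 2.42, 12.9 and 8.82 scaled TPM. Of the other members, Ifi35, Xaf1 and Phf11b had log2 fold changes of 0.18, -0.24 and 0.32 (adjusted p between 0.837 and 0.848).

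The members were less alike among MBC libraries than among PC libraries. Their median SD over libraries on the log2 scale was 0.92 in MBCs and 0.40 in PCs, beside 0.91 and 0.47 over all tested genes. Pearson's r across the 31 tested members was 0.885 to 0.978 for the 6 pairs of PC libraries and 0.469 to 0.657 for the 3 pairs of MBC libraries. Over all tested genes r was 0.850 to 0.957 and 0.675 to 0.687 in the same order, so PC pairs were closer there too. The values for the members describe genes that share libraries and differ widely in level, and members are not replicates. Among the MBC libraries the library labelled MBC replicate 3 held the lowest value for 15 of the 31 tested members and the highest for 3, while MBC replicate 2 held the highest for 16.

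The promoters of the called genes were set beside these levels. RefSeq promoter windows of 300 bases (250 before and 50 after an annotated start, build GRCm38.p6) were found for 35 of the 44 genes, and Dhx58, Zbp1, Oas2, Mx1, Mx2, Usp18, Parp9, Parp14 and Rtp4 had none in the table used. The letters TTTC, then 2 bases of any kind and TTTC again, on either strand, stand here for the ISRE, and TTCNNNGAA, which reads the same on both strands, for the GAS. ISRE letters were present in 20 of 43 member windows (46.5%), against 3.44% of all 32851 windows. GAS letters were present in 9 of the 43 (20.9%), against 8.3% of all windows. Positions are counted from the annotated start at 0. The 250 bases before the start are printed below for 4 called genes and for Ifit1, which had ISRE letters and was at most 0.951 scaled TPM in all libraries but MBC replicate 2. For Ifitm3, whose matches lie just after the start, the matching stretch alone is printed. Capitals mark the ISRE and GAS letters.
Isg15 (chr4:156200819-156201068, minus strand): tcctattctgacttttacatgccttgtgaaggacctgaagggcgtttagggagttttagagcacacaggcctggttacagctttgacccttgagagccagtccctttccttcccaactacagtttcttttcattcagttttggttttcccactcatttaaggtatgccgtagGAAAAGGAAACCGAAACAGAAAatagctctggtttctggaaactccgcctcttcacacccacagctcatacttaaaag
Igtp (chr11:58199306-58199555, plus strand): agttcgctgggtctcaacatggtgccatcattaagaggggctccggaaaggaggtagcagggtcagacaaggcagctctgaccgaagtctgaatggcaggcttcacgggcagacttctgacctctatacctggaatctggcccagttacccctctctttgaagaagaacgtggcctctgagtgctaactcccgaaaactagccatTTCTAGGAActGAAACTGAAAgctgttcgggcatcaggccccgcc
Isg20 (chr7:78913174-78913423, plus strand): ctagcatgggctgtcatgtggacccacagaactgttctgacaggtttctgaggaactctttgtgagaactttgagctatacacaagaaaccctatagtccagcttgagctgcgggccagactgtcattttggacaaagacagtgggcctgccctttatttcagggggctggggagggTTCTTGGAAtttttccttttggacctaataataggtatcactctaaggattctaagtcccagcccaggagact
Samd9l (chr6:3399572-3399821, minus strand): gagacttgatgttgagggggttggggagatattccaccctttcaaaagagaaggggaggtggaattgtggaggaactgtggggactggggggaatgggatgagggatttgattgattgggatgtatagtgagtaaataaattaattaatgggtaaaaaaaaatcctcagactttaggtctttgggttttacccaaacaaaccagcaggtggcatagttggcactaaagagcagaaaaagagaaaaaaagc
Ifit1 (chr19:34640639-34640888, plus strand): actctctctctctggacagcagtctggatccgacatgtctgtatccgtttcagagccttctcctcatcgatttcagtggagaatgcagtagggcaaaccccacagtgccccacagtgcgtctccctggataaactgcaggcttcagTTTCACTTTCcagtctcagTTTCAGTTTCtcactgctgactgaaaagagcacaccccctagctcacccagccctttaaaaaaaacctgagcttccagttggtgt
Ifitm3 (chr7:141010716-141010742, minus strand): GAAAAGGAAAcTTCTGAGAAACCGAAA
Isg15 held 3 overlapping ISRE matches between positions -78 and -57, all in the reverse orientation, which form its run of capitals. Igtp held GAS letters at -45 to -37 and ISRE letters at -34 to -25. In the window of Isg20 printed, of the 3 in the table, GAS letters stood at -73 to -65, and none of its 3 windows held ISRE letters. The window of Samd9l held neither motif. Ifit1 held ISRE letters at -104 to -95 and -85 to -76, and 1 library alone had over 1 scaled TPM of it. Ifitm3 held ISRE letters at 2 to 11 and 19 to 28, and GAS letters at 13 to 21, which overlap the second of these. Thus ISRE letters stood in the windows of 3 of the 4 genes with a window that rose in PCs, and also in those of genes too low to be tested. A match describes letters only and not a bound site.

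**Figure D3:**
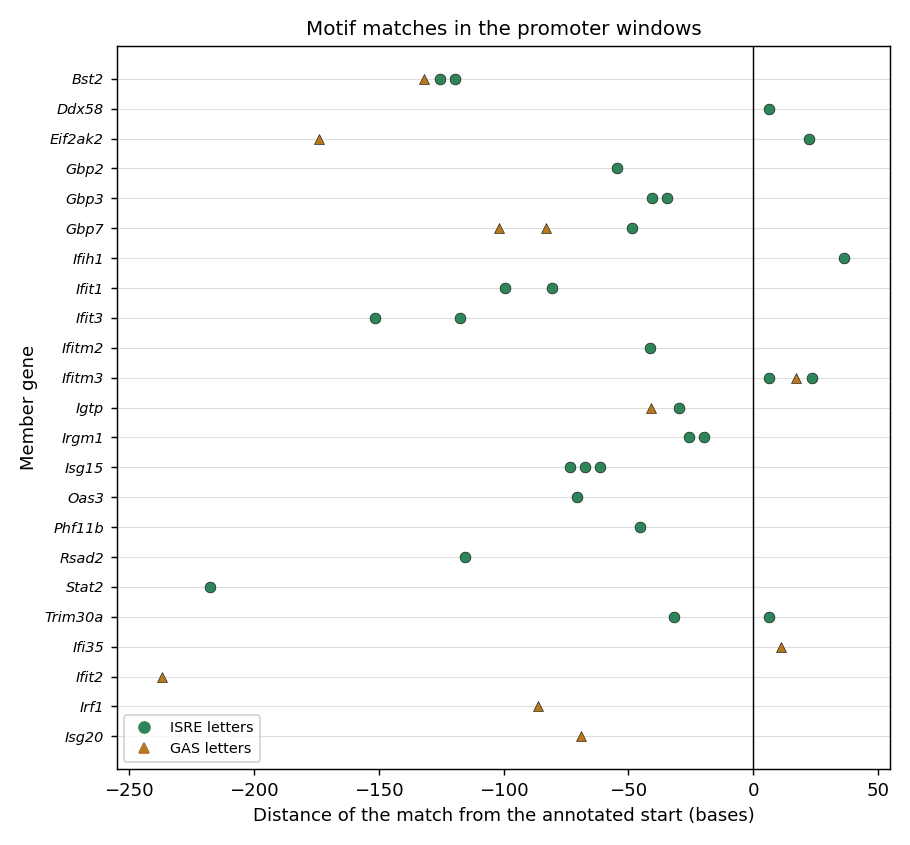
Distance in bases from the annotated start (vertical line at 0) of each ISRE match (green circles) and GAS match (brown triangles) in the promoter windows of the 23 members with a match, 1 row per gene; for genes with several starts, each match is placed from its own start. Most ISRE matches lie within 160 bases before the start, and Isg20, Irf1, Ifit2 and Ifi35 show GAS letters only.

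The receptors and kinases that act before these genes differed between the populations in both directions. Of 15 genes for interferon receptors and proximal signalling, 12 were tested, with 1 called higher and 3 lower in PCs. The shares over all tested genes were 6.41% higher and 2.14% lower. Ifnar2, a chain of the type I receptor, was 1.47, 16.1 and 5.86 scaled TPM in MBCs and 48.1, 48.5, 66.5 and 48.4 in PCs. It rose by 3.01 on the log2 scale (limma standard error 0.60, adjusted p = 0.0136), with no overlap, and the call was lost without PC replicate 3 (adjusted p = 0.0518). Ifnar1, the other chain of that receptor, was 28.2, 21.7 and 12.1 in MBCs and 16.5 to 22.3 in PCs (log2 fold change -0.04, SE 0.40; adjusted p = 0.969). Of the 2 chains of the type I receptor, only Ifnar2 was called with all libraries. With TPM as deposited the call of Ifnar2 was lost (1.84, adjusted p = 0.0511) and Ifnar1 was called lower (-1.30, adjusted p = 0.0347).

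Ifngr1, the ligand-binding chain of the interferon gamma receptor, was 47.3, 64.7 and 26.9 scaled TPM in MBCs and 5.38, 12.1, 4.12 and 9.84 in PCs. It fell by 2.43 on the log2 scale (limma standard error 0.50, adjusted p = 0.0152). Jak1, the kinase shared by both receptors, was 101, 126 and 67.6 in MBCs and 28.6 to 31.2 in PCs, and Ptpn6, the phosphatase SHP-1, was 70.7, 134 and 111 in MBCs and 21.7 to 41.8 in PCs. Both fell, with log2 fold changes of -1.64 (limma standard error 0.33, adjusted p = 0.0148) and -1.65 (limma standard error 0.37, adjusted p = 0.0237), and no value of these 3 genes overlapped between the groups. Jak1 did not pass without PC replicate 2 (adjusted p = 0.0581), nor Ptpn6 without MBC replicate 2 or PC replicate 1, 2 or 3 (0.0574 to 0.0868).

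**Figure D4:**
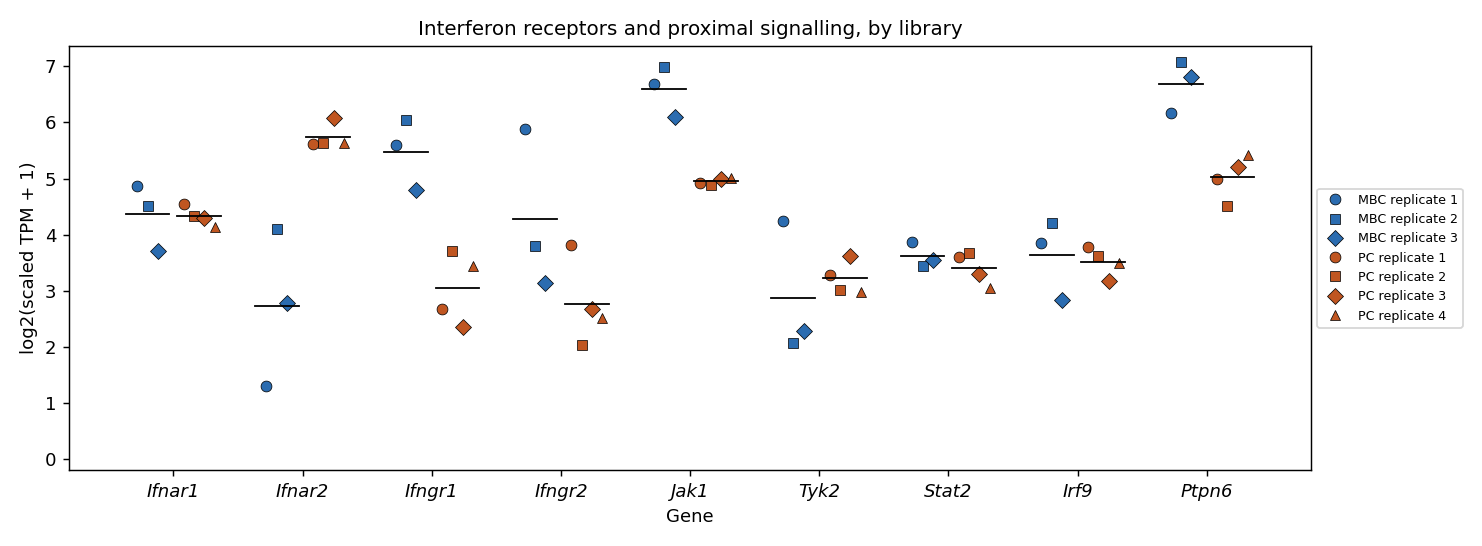
Level of 9 interferon receptor and signalling genes in each library, as log2(scaled TPM + 1), with MBC libraries in blue, PC libraries in orange, a marker shape per replicate and a black line at the group mean. Ifnar2 is higher in every PC library, Ifngr1, Jak1 and Ptpn6 are lower in every PC library, and Ifnar1, Ifngr2, Tyk2, Stat2 and Irf9 overlap.

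Of the 19 genes that lead to interferon production, 18 were tested, with 1 called higher and 2 lower in PCs, beside 6.41% and 2.14% of all tested genes. Tlr9, the endosomal receptor for DNA, was 52.5, 77.0 and 29.2 scaled TPM in MBCs and 3.44 to 6.54 in PCs, a log2 fold change of -3.12 (limma standard error 0.46, adjusted p = 0.0027) that passed in all 17 alternative fits. Irf8 was 131, 132 and 60.8 in MBCs and 21.6 to 32.8 in PCs (-1.91, SE 0.38; adjusted p = 0.0145), and did not pass without PC replicate 2 (adjusted p = 0.0555). Ticam1, the adaptor TRIF, was 8.80, 2.86 and 6.63 in MBCs and 17.8 to 31.7 in PCs (1.82, SE 0.47; adjusted p = 0.0419). The Ticam1 call was lost without MBC replicate 2 or any PC library (adjusted p between 0.0778 and 0.135). Tlr7, the RNA receptor, was not called with all libraries and was called lower without the library labelled MBC replicate 3, in which it was 0.565 scaled TPM, against 19.6 and 33.3 in the other MBC libraries and 5.71 to 10.0 in PCs.

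The interferons themselves were all but absent. Of 11 interferon genes, 9 (Ifna1, Ifna2, Ifna4, Ifna5, Ifnb1, Ifne, Ifnz, Ifnl2 and Ifnl3) were listed at 0 in all 7 libraries. Ifng was 0.0837 scaled TPM in PC replicate 4 and 0 elsewhere, and Ifnk at most 0.221. All were under the floor of 3 reads of a 1 kb transcript, so lower levels could not be detected at this depth.

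A list of 79 further interferon-stimulated genes, not among the 44, was read in the same fit. Of these, 64 were tested, 2 were called higher and 4 lower in PCs, and their median log2 fold change was -0.26. Among all tested genes, 6.41% were called higher, 2.14% lower and 8.55% in either direction, so these counts are not read as a result about the list. Tnfsf10, the gene of the death ligand TRAIL, was 0, 0 and 0.0877 scaled TPM in MBCs, under the floor, and 8.57, 10.6, 9.26 and 6.71 in PCs. The PC mean of 8.79 was 30.3-fold the highest MBC floor. Cxcl10, a chemokine for activated T cells, was 0, 0 and 0.146 in MBCs and 1.18, 3.92, 6.31 and 3.29 in PCs. Both genes met the minimum for testing through PC libraries alone, where they are high, so their calls are given as a count and support nothing further. The Cxcl10 call was also lost without MBC replicate 1 or MBC replicate 2.

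Lower in PCs were Sp110 and Sp140, relatives of Sp100 from the same stretch of chromosome 1, with Aim2 and Ifi30. Sp110 (chr1:85576899-85598817) was 76.0, 90.7 and 61.9 scaled TPM in MBCs and 15.9 to 24.7 in PCs, a log2 fold change of -2.01 (limma standard error 0.35, adjusted p = 0.00603) that kept its side of 0.05 in all 7 fits that left out a library. Sp140 (chr1:85600378-85645037) was 255, 153 and 156 in MBCs and 57.7 to 103 in PCs (-1.31, SE 0.34; adjusted p = 0.0448). Sp100 begins at position 85649988, next to Sp140, so these neighbors were all lower in every PC library than in any MBC library. Aim2, a sensor of cytosolic DNA, was 78.7, 124 and 24.1 in MBCs and 11.2 to 19.1 in PCs (-2.01, SE 0.54; adjusted p = 0.0494). Ifi30, a lysosomal reductase of antigen processing, was 106, 126 and 112 in MBCs and 31.2 to 55.9 in PCs (-1.28, SE 0.33; adjusted p = 0.041). Sp140, Aim2 and Ifi30 each lost the call in all 6 fits that left out a library other than MBC replicate 3, with adjusted p between 0.0531 and 0.134.

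Without the library labelled MBC replicate 3, 3 of the further genes were called higher and 20 lower, beside 15.1% and 8.2% of all genes tested in that fit. Among the lower calls of that fit were Ifi203 and Mndal of the HIN-200 family, chosen here after their values were seen. Ifi203 had 202 and 359 scaled TPM for MBC replicates 1 and 2, 9.58 for the library labelled MBC replicate 3, and 19.1 to 29.5 over PCs. Mndal was 285, 247, 15.5 and 50.4 to 103 in the same order. In both genes that library lay below every PC library while the other MBC libraries lay above them all. Without it their log2 fold changes were -3.46 (limma standard error 0.36, adjusted p = 0.000864) and -2.08 (limma standard error 0.36, adjusted p = 0.00692), and with it -1.90 (adjusted p = 0.286) and -0.74 (adjusted p = 0.657). Ifi203 and Mndal overlap on chromosome 1 and belong to a family of similar copies, so the division of reads between them is uncertain.

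Markers of other cell types were read beside these results. The 8 T cell genes summed to 14.3, 0 and 24.3 scaled TPM in MBCs and 15.3 to 40.2 in PCs, with 2 of the 3 tested (Cd3e and Trac) called higher in PCs. The MBC sums were nearly all Lck, the third tested gene, at 14.3, 0 and 23.0 in MBCs and 0.629 to 5.03 in PCs. Cd3e was 0, 0 and 0.658 in MBCs and 3.86 to 14.2 in PCs. Trac was at most 0.234 in MBCs and did not overlap between the groups, so the sums hide the levels of these called genes. Cd3e and Trac met the minimum for testing only with PC libraries, where they are high, and their calls are read with that limit. The 6 NK cell genes summed to at most 0.497 in MBCs and 2.89 to 8.23 in PCs. Of the 8 myeloid genes Ly6c2 alone was called, at 184 to 290 in PCs and 0 in MBCs, and the same limit holds for it. Fcgr1 was listed at 0 in all libraries and Cd14 in all PC libraries. The 6 neutrophil genes summed to at most 0.357 in any library, with Mpo, Elane, Ly6g, Ngp and S100a9 listed at 0 throughout. Among the 6 plasmacytoid dendritic cell genes, which include Spib, also a B cell gene, Spib alone was called, and it was lower in PCs. The part of such cells in the higher PC levels of Isg20, Isg15, Zbp1, Igtp and Ifitm3 was not tested.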

How the data were processed

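Bulk RNA of 3 MBC and 4 PC libraries was turned into libraries with Nugen cDNA reagents and read on a HiSeq, per the labels. The authors deposited TPM (read counts over gene length, scaled to the same total in every library) for 48795 genes, rounded to 2 decimals. The submitters' processing notes name STAR 2.5.2a, RSEM 1.3.0, DESeq2 1.18.1 and build GRCm38, without roles; the annotation release is not given in the sources used here. TPM keeps no read total and lets abundant transcripts lower all others.

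Symbols came from GENCODE M21 (GRCm38) and matched 48349 genes. A scaling factor per library was the median, over 9305 genes with no value of 0, of the ratio to their geometric mean (factors 1.48 to 2.05 in MBCs, 0.636 to 0.813 in PCs). Genes that reached 1 TPM in 3 or more libraries, 11573 in all, entered limma 3.58.1 (R 4.3.3) as log2(scaled TPM + 1) (eBayes with trend, no covariate), with Benjamini-Hochberg adjustment over all of them. Python 3.11.15, pandas 2.3.3 and numpy 2.4.6 served the other steps. Depth was estimated after the data were seen, from the steps of low values of genes with 1 annotated transcript, of which 73.1% to 82.7% came within 0.15 of whole reads (30% is the share coincidence gives). Floors cover counting error only. The procedures were tested on simulated data.

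Full values are given for members called with all libraries or without MBC replicate 3, for the 6 most abundant in each group, and for called pathway genes. The members, lists and tests were chosen with earlier results of these data known. Alternatives were other scalings, filters, pseudocounts and variance models, libraries left out and replicate blocks. A gene that the rule for named genes covers is not reported here.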

Additional observations from a re-analysis of the deposited data

Results flagged for a closer look

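In the 4 PC libraries, 8 of 59 named genes with differing values had a library set apart from the other 3 by Dixon's criterion, where about 2.95 would be by chance at 1 in 20. PC replicate 3 held 4 of them: Irf7 was 12.5 scaled TPM there and 4.13 to 4.53 in the other PC libraries, Ifnar2 66.5 against 48.1 to 48.5, Sp110 24.7 against 15.9 to 16.4, and Trim30a 32.1 against 41.8 to 42.9. PC replicate 2 held Ifitm2, at 1.99 against at most 0.195, and Mx2, at 0.49 against at most 0.0418. PC replicate 4 had 1.94 of Oas2, against at most 0.163, and PC replicate 1 had 3.81 of Gbp2, against 1.02 to 1.23. In the other PC libraries Ifitm2, Mx2 and Oas2 were under the floor of 3 reads of a 1 kb transcript. MBCs, with 3 libraries, were not examined in this way.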

How the results depend on the processing

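Isg20 and Isg15 passed 0.05 in all 17 alternatives, Zbp1 in 14, Samd9l in 10, Igtp in 9 and Ifitm3 in 5. With 5 members called higher and 1 lower, TPM as deposited gave 2 and 5, which goes with a shift of the median of all genes from 0.14 to -0.91. Immunoglobulin genes removed and quantile normalization, with medians of all genes at -0.11 and -0.15, each gave 4 higher and 2 lower. No filter on low genes gave 2 higher and 0 lower (limma; more genes enter the adjustment), and the more frequent title prefix alone (2 MBC and 3 PC libraries) gave 3 and 3. Leaving out 1 library gave 3 to 5 higher members (3 without PC replicate 2 or 4) and 0 to 3 lower (0 without MBC replicate 1 or 2 or PC replicate 1, 2 or 4, 3 without MBC replicate 3). The cause of the other changes was not tested.

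For the 124 other pathway genes (4 higher, 9 lower), TPM as deposited gave 2 and 50, no filter gave 1 higher, and leaving out 1 library gave 1 (without PC replicate 3) to 5 higher and 3 (without PC replicate 2) to 27 (without MBC replicate 3) lower. For the markers (6 lower), TPM as deposited gave 14 and leaving out 1 library 5 to 11. For all tested genes (742 higher, 248 lower), the counts were 472 and 3018 with TPM as deposited, 395 and 433 with immunoglobulin genes removed, 437 and 123 with no filter, 490 lower with quantile normalization and 448 lower with the more frequent prefix. Leaving out 1 library gave 456 to 1624 higher and 93 to 881 lower genes, with the highest counts without MBC replicate 3 and the lowest without PC replicate 2.

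The genes named as called, most abundant or interferon receptors were followed through each alternative that tested them, and of these Irf1, Ddx58, Trim25, Trim30a and Ifnar1 turned in direction, none of them called with all libraries. Gbp7 and some further pathway genes also turned without MBC replicate 3. Irf1 was -1.20 with TPM as deposited, -0.25 with immunoglobulin genes removed, -0.12 with quantile normalization, -0.46 with the more frequent prefix, and between -0.54 and 0.98 with a library left out. With TPM as deposited Ddx58 was -0.0053, Trim25 -0.82 and Trim30a -0.69. With a library left out, Ddx58 was between -0.074 (without MBC replicate 3) and 1.89, and Ifnar1 between -0.36 (without MBC replicate 3) and 0.20 (without MBC replicate 1).

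MBC and PC replicate numbers gave correlations of deviations of 0.109, -0.0398 and -0.0832, and the title codes shared by both groups 0.109, -0.00436 and 0.222. Pairs that share neither gave -0.176 to 0.152, so the 0.222 of a shared code was the highest value. Deviations from the means of so few libraries can neither show nor exclude pairing. The main fit used no pairs, and fits with either block are given here. With the replicate block by number, 2 members were higher and 0 lower, 2 and 1 pathway genes, and 390 and 60 of all genes; Ifnar1 was 0.030, and the calls of Zbp1, Igtp, Ifitm3 and Samd9l were lost (limma adjusted p = 0.0646, 0.143, 0.148 and 0.11). With the replicate block by title code, 3 members were higher, 2 and 2 pathway genes were higher and lower, and 434 and 83 of all genes, and the calls of Igtp (0.101) and Ifitm3 (0.095) were lost.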
